A study of Mus musculus with 16 samples.

Results

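Deletion of Vhl on top of deletion of Pbrm1 was examined by setting the 4 double mutant arrays of mouse kidney cortex against the 4 Pbrm1 mutant arrays, which is 8 of the 16 arrays of the study, over all 22180 genes with 1 symbol in the annotation of the deposited log2 table. The arrays were chosen by their genotype label, and no measured value entered the choice. The Pbrm1 mutants carried Pbrm1F/F with Ksp-Cre and the double mutants VhlF/F and Pbrm1F/F with Ksp-Cre, so both groups had lost Pbrm1 where Cre was active and differed in Vhl. F/F stands for a pair of loxP-flanked (floxed) copies. The other 8 arrays came from VhlF/F Ksp-Cre mice (Vhl mutants) and from wild-type mice, 4 arrays each. All mice were 3 months old and fed a normal diet. The 3 mutant groups were on a mixed background of C57BL/6, BALB/c and 129, and the wild-type mice were C57BL/6. The labels do not give the share of each strain in a group. The study was set up to find early transcriptional events that could bear on clear cell renal cell carcinoma.

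Vhl encodes the substrate-binding subunit of a ubiquitin ligase that marks the alpha subunits of the hypoxia-inducible factors (HIFs) for degradation after prolyl hydroxylases have modified them in the presence of oxygen. Without it, HIF-alpha persists in normal oxygen and, with its partner ARNT, raises the transcription of genes for glucose uptake, glycolysis, blood vessel growth and adaptation to low oxygen. Pbrm1 encodes BAF180, the bromodomain subunit of the PBAF form of the SWI/SNF chromatin remodeler. Loss of VHL, often joined by loss of PBRM1, is the common genetic pattern of clear cell renal cell carcinoma. Ksp-Cre acts in tubule epithelium, since its promoter belongs to the cadherin gene Cdh16 (kidney-specific cadherin), and not in vessels, interstitium or immune cells. Cdh16 is itself measured here: it read 10.49, 10.44, 10.47 and 10.46 in the double mutants and 10.71, 10.70, 10.77 and 10.75 in the Pbrm1 mutants, a small fall (-0.26 ± 0.05 SE, adjusted p = 0.00054, and 0.052 without double mutant replicates 1 to 3), and the wild-type and Vhl mutant means were 10.79 ± 0.05 and 10.57 ± 0.06.

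Expression is given as log2 values from robust multi-array averaging, and differences are on the log2 scale unless a fold is named. Called genes had an adjusted p (Benjamini-Hochberg, limma) under 0.05, and ± is the SD over n = 4 arrays. Nothing in the labels states that a group's 4 arrays are 4 animals: each array has a number in its description, shared by Pbrm1 mutant replicates 1 and 2, by 3 and 4, and by double mutant replicates 1 to 3, so p-values measure the spread between arrays, which may be partly technical. The array medians lay between 5.18 and 5.27, and their lower quartiles, taken here as the background level, between 3.60 and 3.72. The tissue label was borne out by the markers: the 29 proximal tubule genes averaged 10.75 to 10.91 in the 8 arrays, against 3.69 to 3.96 for 7 adrenal cortex genes and 4.43 to 4.72 for 7 skeletal muscle genes. The probe sets of the deleted genes checked nothing. Vhl read 6.51, 6.08, 6.08 and 6.20 in the double mutants and 6.27, 6.28, 6.30 and 6.20 in the Pbrm1 mutants, which overlapped, and the Pbrm1 means of the 4 groups lay between 8.13 and 8.19. Adipose genes were highest in Pbrm1 mutant replicate 3, where the 10 tested averaged 7.74 (6.61 to 6.65 in the other 3 Pbrm1 mutant arrays), and next in double mutant replicate 3, at 7.15 (6.48 to 6.84 in the others).

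The double mutants differed from the Pbrm1 mutants at 2260 genes, 10.2% of those tested. Of these, 1513 (6.82% of genes) were higher in the double mutants and 747 (3.37%) lower. That split depends on the scaling: with each array centred on its median it was 1193 higher and 1079 lower, and with quantile normalization 1339 and 1059. The arrays of the 2 groups did not overlap at all for 3871 genes (17.5%), 2153 of them higher (9.71%) and 1718 lower (7.75%). At least 1.5-fold changes made up 748 of the calls, 599 up and 149 down, so the large changes were mostly rises. At an unadjusted p under 0.05 limma gave 2683 higher and 2126 lower genes, and where a gene list below has 0 calls in a direction, 0 to 5 of its genes passed that looser limit. The lists were drawn up with earlier results of these data known, and their counts are to be read against the shares over all genes, not as tests of the lists. With arrays averaged per description number there were 1398 calls, and without double mutant replicates 1 to 3, which leaves 1 double mutant array whose spread is taken from the other groups, 1011; without Pbrm1 mutant replicates 3 and 4 there were 1394.

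**Figure D1:**
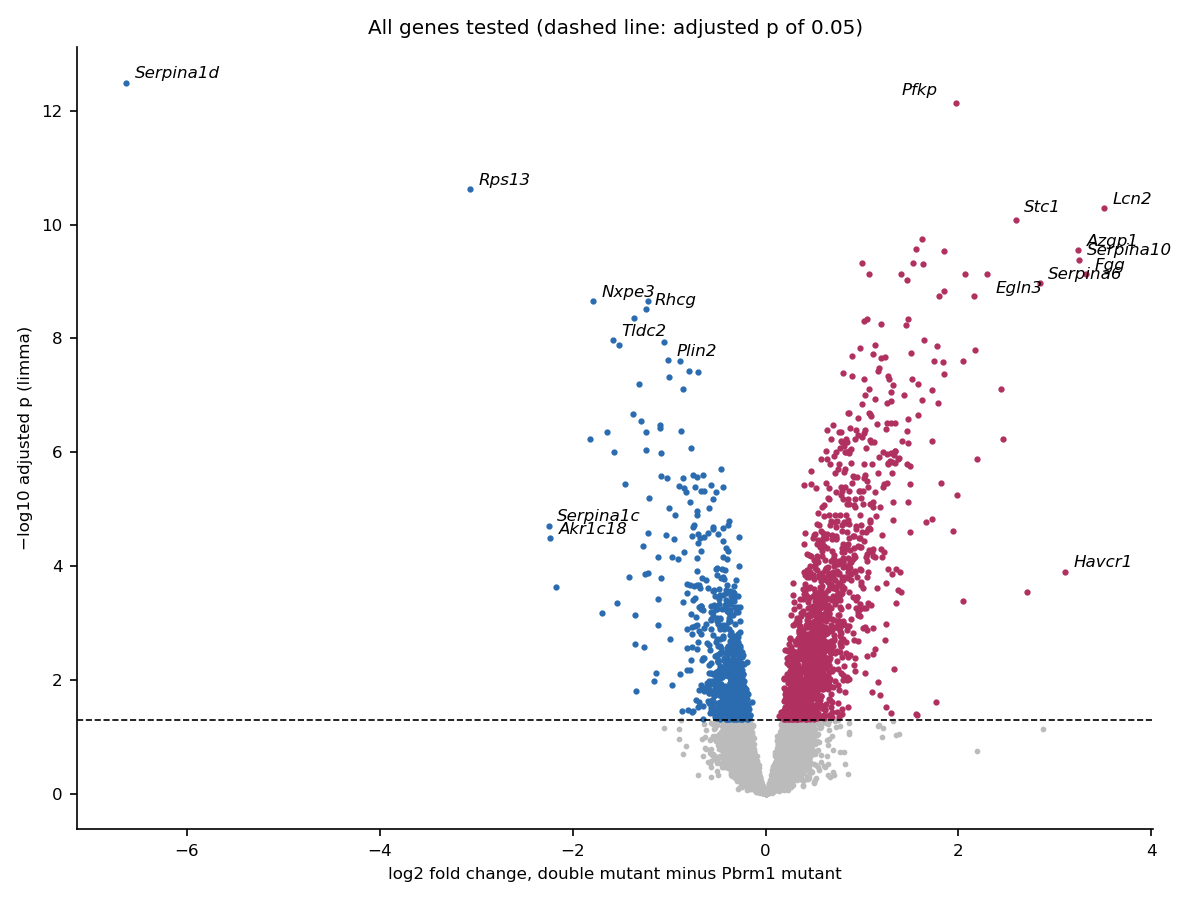
Each point is a gene: x axis, log2 fold change of double mutant over Pbrm1 mutant arrays (4 and 4); y axis, −log10 of the limma adjusted p. Red points are called higher (1513), blue points called lower (747), gray points not called, and the dashed line marks an adjusted p of 0.05; Lcn2, Fgg and Azgp1 lie far to the right and Serpina1d far to the left.

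A minority of genes of the oxygen-sensing pathway itself were called, though a larger share rose than over all genes. Of 14 pathway genes tested, 3 rose (21.4%) and 0 fell (all genes: 6.82% and 3.37%). The median difference was 0.11 against -0.02 over all genes. Egln3, which encodes the HIF prolyl hydroxylase PHD3 and is itself switched on by HIF, read 8.89, 8.80, 8.98 and 8.88 in the double mutants and 6.30, 6.34, 7.06 and 6.63 in the Pbrm1 mutants. Every double mutant array lay above every Pbrm1 mutant array, and the difference was 2.30 ± 0.14 SE, adjusted p = 7.4e-10, or 4.93-fold. Egln1 (PHD2) rose less, from 8.25 ± 0.08 to 8.66 ± 0.10 (0.41 ± 0.06 SE, adjusted p = 0.00014). The third was Arnt2, a partner subunit of HIF-alpha, at 8.04, 8.09, 7.95 and 8.04 against 7.57, 7.41, 7.50 and 7.52 (0.53 ± 0.08 SE, adjusted p = 6.8e-05). Epas1, encoding HIF-2alpha, was not called: 9.32, 9.20, 9.36 and 9.23 against 9.10, 8.96, 9.24 and 9.09, overlapping groups, 0.18 ± 0.07 SE, adjusted p = 0.14. Hif1a has a pair of probe sets that disagree. The brighter, used throughout, read 7.39 ± 0.11 against 7.65 ± 0.06 and was not called (-0.26 ± 0.09 SE, adjusted p = 0.071), whereas the other averaged 5.71 ± 0.25 in the double mutants and 3.66 ± 0.15, about background, in the Pbrm1 mutants, so the data give Hif1a no single direction.

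Genes switched on by HIF were higher as a group. Of 40 targets tested, 23 rose and 1 fell, with a median difference of 0.41 (15 rose, with a median of 0.36, without double mutant replicates 1 to 3). The lactate exporter gene Slc16a3 (MCT4) read 6.72, 6.82, 6.75 and 6.86 in the double mutants and 4.89, 4.69, 5.13 and 5.03 in the Pbrm1 mutants, 3.61-fold higher with no overlap (1.85 ± 0.12 SE, adjusted p = 1.5e-09). Plod2, a collagen lysyl hydroxylase, read 8.54, 8.68, 8.87 and 8.86 against 7.14, 7.08, 7.41 and 7.50 (1.46 ± 0.10 SE, adjusted p = 5.8e-09). Both genes were uniform within the double mutants, where the arrays spanned less than the gap between groups. A further 3 genes showed the same order of groups without overlap: Bnip3 in mitochondrial autophagy (0.78 ± 0.09 SE, adjusted p = 4.1e-06), Pdk1, the kinase that shuts pyruvate out of mitochondria (1.3 ± 0.11 SE, adjusted p = 1.3e-07), and Ndufa4l2, a mitochondrial protein abundant in clear cell carcinoma (1.18 ± 0.15 SE, adjusted p = 9.2e-06). Car9, the carbonic anhydrase used as a marker of that tumor, read 8.05, 7.87, 8.74 and 8.22 against 7.46, 7.54, 7.37 and 7.52. It rose without overlap (0.75 ± 0.14 SE, adjusted p = 0.00099), its highest value was in double mutant replicate 3, and with the mean of its probe sets it was not called (adjusted p = 0.17). Its second probe set went the other way, by -0.23 (6.30 ± 0.21 against 6.53 ± 0.20). Unlike the genes above, Car9 did not differ detectably between Vhl mutants and wild type (0.04 ± 0.14 SE, adjusted p = 0.92). Those means, 6.56 ± 0.09 and 6.51 ± 0.16, lay below the Pbrm1 mutant mean of 7.47 ± 0.07. Second, dimmer probe sets of Pdk1 and Ero1a differed by 0.02 and 0.15, against 1.29 and 0.98 in the sets used. Ero1a, an oxidase of disulfide formation in the endoplasmic reticulum, rose from 8.27 ± 0.07 to 9.24 ± 0.16 (0.98 ± 0.07 SE, adjusted p = 1.5e-08). Fam162a, which is induced by low oxygen, went from 7.75 ± 0.14 to 8.58 ± 0.09 (0.84 ± 0.08 SE, adjusted p = 6e-07).

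The 1 target that fell was Plin2, the coat protein of lipid droplets. It read 7.06, 7.08, 7.28 and 7.35 in the double mutants and 8.23, 8.16, 8.25 and 8.19 in the Pbrm1 mutants, 2.01-fold lower (-1.01 ± 0.08 SE, adjusted p = 2.4e-08), and its means in Vhl mutants and wild type were 8.32 ± 0.11 and 8.47 ± 0.09. The double mutants were the lowest of the 4 groups.

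Most tested genes of the glucose-to-lactate pathway rose. Of 15 glycolysis genes tested, 12 rose (80.0%, against 6.82% of all genes) and 0 fell, median 0.54. With arrays averaged per description number 9 rose. Gpi1, Aldoa and Eno1 were on the list but not among the genes tested. The mean of the 15 lay between 8.56 and 8.68 in the double mutant arrays and between 7.77 and 7.86 in the Pbrm1 mutant arrays. Uptake came first: Slc2a1 (the glucose transporter GLUT1) read 9.85, 9.85, 9.43 and 9.62 against 8.55, 8.78, 8.54 and 8.56, a difference of 1.08 ± 0.10 SE, adjusted p = 2e-07, while its second, dim probe set differed by -0.01. Hk2, the hexokinase of growing cells, read 6.64, 6.31, 6.17 and 6.27 against 4.66, 4.92, 4.95 and 4.82, 2.84-fold (1.5 ± 0.11 SE, adjusted p = 1.8e-08). The phosphofructokinase step, which commits sugar to glycolysis, changed most. Pfkp read 9.55, 9.40, 9.59 and 9.63 in the double mutants and 7.61, 7.55, 7.54 and 7.58 in the Pbrm1 mutants, and was 3.93-fold higher (1.98 ± 0.07 SE, adjusted p = 7.4e-13). Pfkl, the liver form of the same enzyme, read 9.07, 8.75, 8.86 and 8.98 against 7.30, 7.48, 7.32 and 7.34 (1.56 ± 0.09 SE, adjusted p = 2.7e-10). Both groups were tight and far apart for these subunits. Lower in the pathway, the aldolase Aldoc rose by 1.05 (adjusted p = 3.2e-06), Pgk1 by 0.40 (3.9e-06), the pyruvate kinase Pkm by 0.90 (2e-08) and lactate dehydrogenase Ldha by 0.54 (4.2e-05). The opposite pathway, gluconeogenesis, had 2 genes higher and 2 lower of 8 tested, median -0.02. Averaging arrays per description number left 1 higher and 0 lower. Pck2, a mitochondrial enzyme of glucose synthesis, rose by 0.59 (adjusted p = 0.00039, and 0.20 without double mutant replicates 1 to 3), and the other riser was Gpt2; the glucose-6-phosphate transporter gene Slc37a4 and the exit transporter gene Slc2a2 fell.

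The bases just upstream of the 4 called HIF target or glycolysis genes of smallest p are shown because HIF binds the core ACGTG or GCGTG. Each sequence is the 250 bases before the annotated start in RefSeq (GRCm38.p6), 5′ to 3′ on the gene's strand, and capitals mark ACGTG or GCGTG on either strand (the reverse strand reads CACGT or CACGC).
Pfkp, chr13:6648772-6649021, minus strand: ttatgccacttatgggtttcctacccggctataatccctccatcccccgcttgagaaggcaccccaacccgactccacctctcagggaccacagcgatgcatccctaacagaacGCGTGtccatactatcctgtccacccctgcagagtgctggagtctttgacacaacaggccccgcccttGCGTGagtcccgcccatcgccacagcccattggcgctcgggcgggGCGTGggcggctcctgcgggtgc
Pfkl, chr10:78009808-78010057, minus strand: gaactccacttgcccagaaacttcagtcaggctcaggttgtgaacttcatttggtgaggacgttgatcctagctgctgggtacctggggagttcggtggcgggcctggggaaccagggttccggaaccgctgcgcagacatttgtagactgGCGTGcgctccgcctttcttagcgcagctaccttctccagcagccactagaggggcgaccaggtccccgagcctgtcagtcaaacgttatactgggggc
Egln3, chr12:54203875-54204124, minus strand: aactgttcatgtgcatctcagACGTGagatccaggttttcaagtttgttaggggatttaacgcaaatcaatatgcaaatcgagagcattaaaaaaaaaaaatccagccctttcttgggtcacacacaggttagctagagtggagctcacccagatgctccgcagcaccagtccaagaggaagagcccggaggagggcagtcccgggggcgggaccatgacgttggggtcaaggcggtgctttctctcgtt
Slc16a3, chr11:120948817-120949066, plus strand: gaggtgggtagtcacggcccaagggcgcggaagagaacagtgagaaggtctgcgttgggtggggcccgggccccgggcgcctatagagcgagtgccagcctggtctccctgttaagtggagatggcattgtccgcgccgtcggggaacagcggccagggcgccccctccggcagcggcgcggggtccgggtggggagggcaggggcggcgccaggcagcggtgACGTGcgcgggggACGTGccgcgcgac

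Pfkp held 3 GCGTG cores, Pfkl 1 GCGTG, Egln3 1 ACGTG and Slc16a3 2 ACGTG. Among the called HIF targets and glycolysis genes with a promoter in the table, 26 of 27 (96.3%) had ACGTG or GCGTG in this window, against 13 of the 16 that were not called (81.2%) and 41.5% of all 27025 genes of the table. ACGTG alone was found in 63.0%, 43.8% and 18.5%, and GCGTG alone in 74.1%, 75% and 30.9%. A match of 5 letters is a description of the sequence and not a binding site, and these lists were drawn up from known targets, many of which have such cores.

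**Figure D2:**
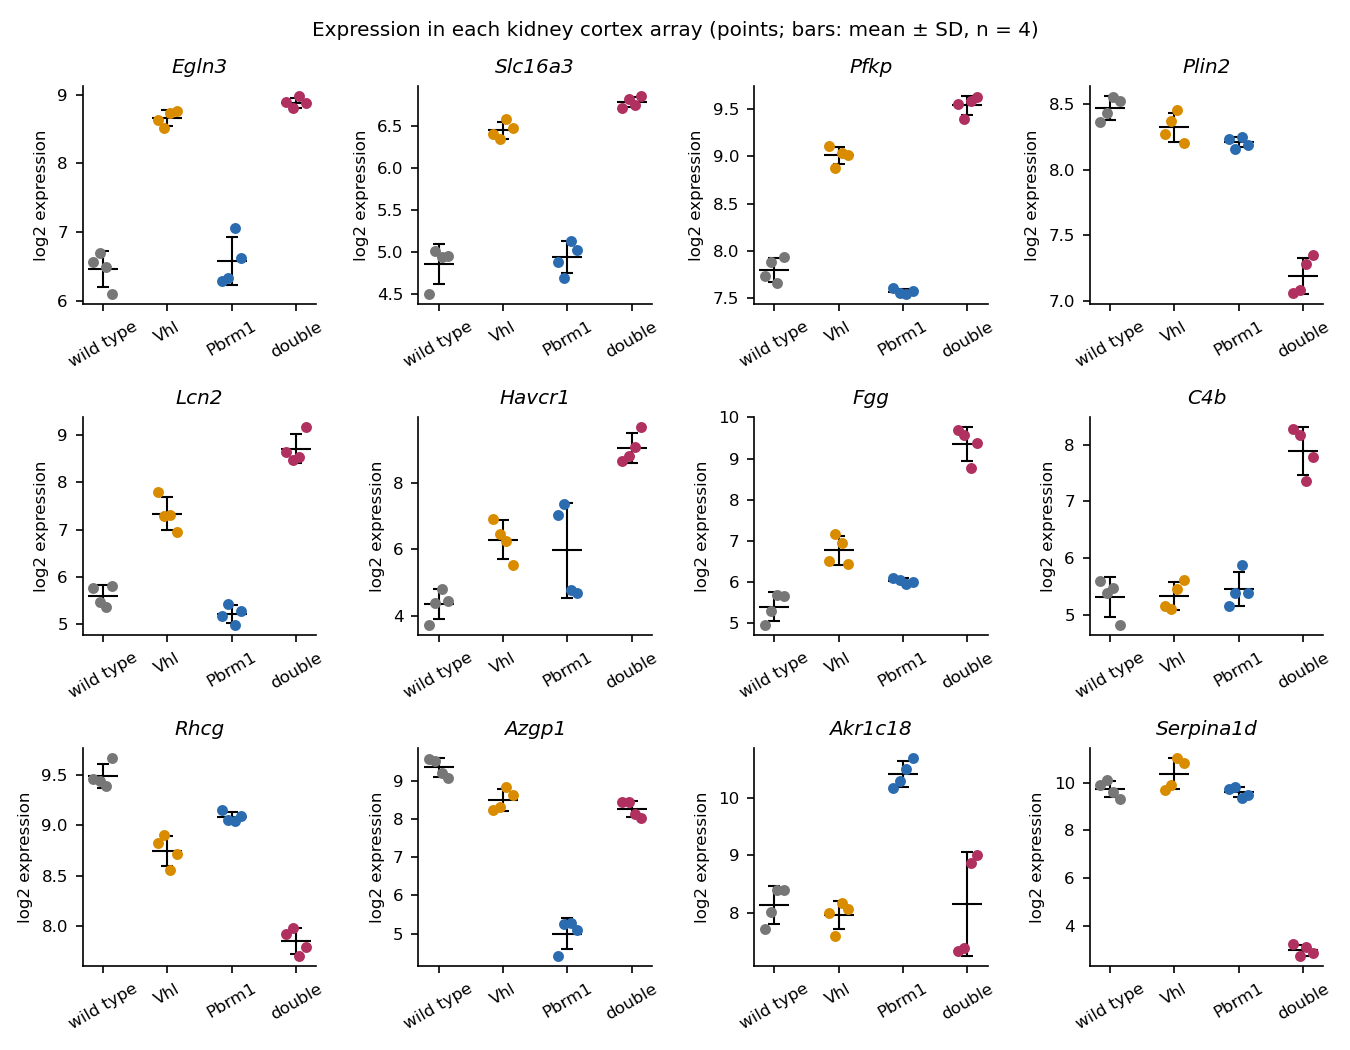
Log2 expression of 12 genes in each array (points), with bars for mean ± SD of 4 arrays; x axis, the 4 genotypes; each panel has its own y axis. Egln3, Slc16a3 and Pfkp are high in both groups with floxed Vhl, Plin2 is low in the double mutants, Lcn2, Havcr1, Fgg and C4b are highest there, and Azgp1 is low and Akr1c18 high in the Pbrm1 mutants.

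Secreted factors that act on vessels were mixed. Of 24 tested, 9 rose and 2 fell, median 0.13. Stc1, a glycoprotein hormone of calcium and phosphate balance that HIF induces, was among the largest rises of all genes: 7.89, 7.82, 7.87 and 7.87 in the double mutants against 5.43, 5.18, 5.54 and 4.93 in the Pbrm1 mutants, 6.04-fold (2.59 ± 0.13 SE, adjusted p = 8.4e-11). The double mutant arrays agreed closely and lay far above the other 4. Adrenomedullin (Adm), a vasodilator peptide, read 7.02, 6.81, 7.12 and 7.05 against 5.64, 5.38, 5.84 and 5.93 (1.3 ± 0.14 SE, adjusted p = 1e-06), and Edn1, the precursor of the vasoconstrictor endothelin, read 6.29, 6.23, 5.51 and 6.36 against 4.51, 4.54, 4.74 and 4.76 (1.47 ± 0.18 SE, adjusted p = 7.5e-06). In Edn1 double mutant replicate 3 stood below the other 3 and still above every Pbrm1 mutant array. Hgf, the ligand of the Met receptor, rose by 1.35 (adjusted p = 9.7e-07) and the platelet-derived growth factor Pdgfd by 0.88 (5.2e-05). Vegfa, the main endothelial growth factor, rose by only 0.27 (adjusted p = 0.00074), and the call was lost without double mutant replicates 1 to 3 (0.072). Egf, made by the thick ascending limb, fell (-0.31 ± 0.05 SE, adjusted p = 0.00018), as did Fgf1.

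Markers of tubular injury and repair rose nearly as a whole: of 24 tested, 19 rose and 0 fell, median 0.82, and the mean of the list was 7.21 to 7.46 in the double mutant arrays against 6.27 to 6.39 in the Pbrm1 mutant arrays. Lcn2, the siderophore-binding protein NGAL that injured distal tubule releases, read 8.65, 8.48, 8.54 and 9.17 in the double mutants and 5.18, 5.43, 4.98 and 5.29 in the Pbrm1 mutants. It was 11.4-fold higher, the largest rise of any gene whose groups did not overlap (3.51 ± 0.17 SE, adjusted p = 5.2e-11). Havcr1, the proximal tubule injury molecule KIM-1, read 8.64, 8.79, 9.06 and 9.67 in the double mutants. In the Pbrm1 mutants it split by description number, 7.02, 7.37, 4.77 and 4.67, so that replicates 1 and 2 had raised values and replicates 3 and 4 sat near the wild-type mean of 4.34 ± 0.45. Every double mutant array was still higher (3.11 ± 0.48 SE, adjusted p = 0.00013), and the fold of 8.62 averages over that split.

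Other members of the injury list were more even. The cell cycle inhibitor p21 (Cdkn1a) read 8.82, 8.59, 8.56 and 8.55 against 7.12, 7.09, 6.81 and 6.93 (1.64 ± 0.12 SE, adjusted p = 1.1e-08). The adhesion molecule Vcam1, which marks proximal tubule cells that fail to repair, read 7.99, 8.08, 7.84 and 8.47 against 6.36, 6.34, 6.39 and 6.23 (1.78 ± 0.13 SE, adjusted p = 1.4e-08). Neither gene had overlapping groups. Keratins of simple epithelium rose with them: Krt19 read 6.33, 6.50, 5.98 and 6.04 against 4.39, 4.80, 4.41 and 4.32 (1.72 ± 0.15 SE, adjusted p = 8.1e-08), and Krt18 7.23, 7.23, 6.86 and 7.20 against 5.78, 5.70, 5.93 and 5.62 (1.37 ± 0.15 SE, adjusted p = 1.3e-06). A second probe set of Krt18 was below background in both groups (3.16 and 3.17). The membrane-binding protein Anxa2 rose by 1.3 (adjusted p = 3e-07) and the transcription factor Sox4 by 1.10 (6.6e-07; its second, dim probe set differed by 0.05). Sprr1a, a cornified envelope protein outside this list, was among the largest rises, at 7.81, 7.70, 6.81 and 7.08 against 5.49, 4.54, 3.74 and 4.75 (2.71 ± 0.45 SE, adjusted p = 0.00029), with a wide spread in both groups. Without double mutant replicates 1 to 3 its call was lost (adjusted p = 0.056).

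**Figure D3:**
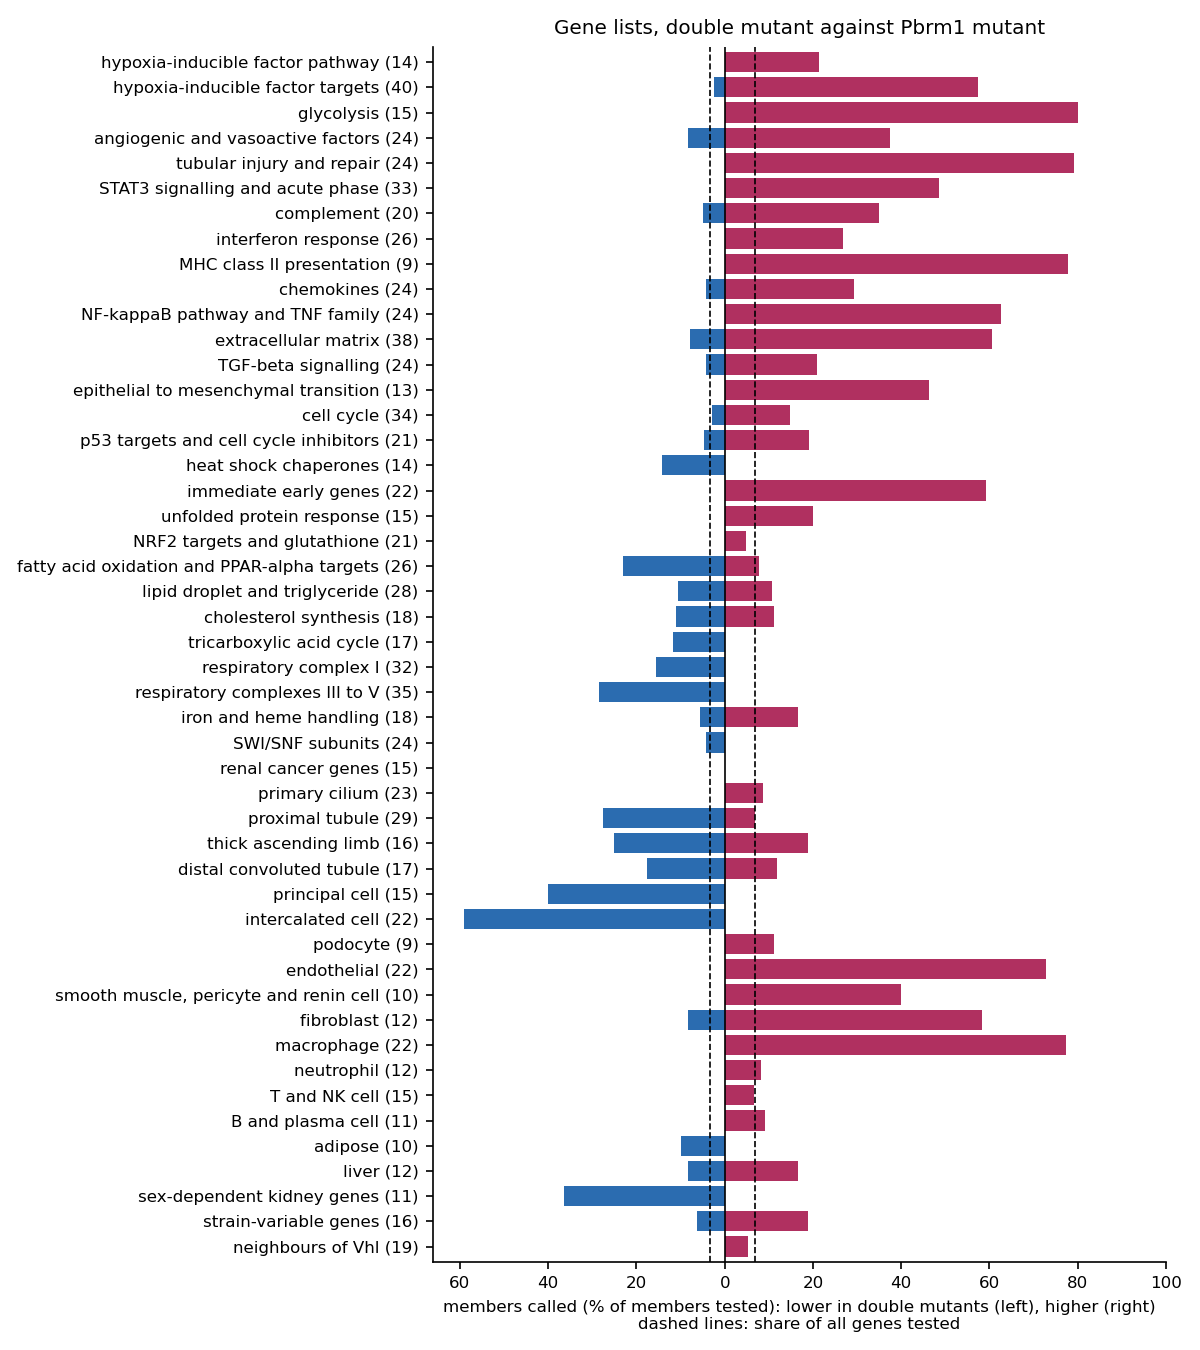
Share of tested members of each gene list (number in brackets; lists with at least 9 tested) called higher (right, red) or lower (left, blue) in double mutant against Pbrm1 mutant arrays, in % of members; dashed lines are the shares over all genes, 6.82% higher and 3.37% lower. Glycolysis (80.0%), tubular injury (79.2%), MHC class II (77.8%) and macrophage genes (77.3%) reach furthest to the right, and intercalated cell genes are lower at 13 of 22.

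Signalling through the interleukin-6 family and STAT3 drives the acute phase response, in which the liver, and epithelia under stress, make fibrinogen and other plasma proteins. Of 33 genes of this kind tested, 16 rose and 0 fell, median 0.28 (8 rose, median 0.26, without double mutant replicates 1 to 3). The receptor gene Osmr (oncostatin M receptor) read 8.38, 8.30, 8.22 and 8.27 in the double mutants and 6.72, 6.36, 6.39 and 6.28 in the Pbrm1 mutants, 3.61-fold (1.85 ± 0.10 SE, adjusted p = 2.9e-10). The transcription factor gene Stat3 read 9.46, 9.43, 9.27 and 9.32 against 8.60, 8.61, 8.53 and 8.53 (0.80 ± 0.06 SE, adjusted p = 4e-08). Its inhibitor Socs3 rose by 0.65 (adjusted p = 0.0028), a call that was lost with the mean of its probe sets (0.36) and without double mutant replicates 1 to 3 (0.059).

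The plasma proteins included the largest rises of the list. Fgg, the fibrinogen gamma chain, read 9.70, 9.57, 8.78 and 9.39 against 6.11, 6.06, 5.95 and 6.01, 10-fold higher (3.33 ± 0.20 SE, adjusted p = 7.4e-10). Fga, the alpha chain, read 7.88, 7.94, 7.37 and 7.79 against 5.61, 5.53, 5.93 and 5.64 (2.07 ± 0.13 SE, adjusted p = 7.4e-10). The beta chain Fgb was less even, 5.94, 6.00, 4.75 and 6.12 against 4.48, 4.37, 4.42 and 4.29, with double mutant replicate 3 near the Pbrm1 mutant arrays (1.33 ± 0.31 SE, adjusted p = 0.0064); its call was lost without Pbrm1 mutant replicates 3 and 4 (adjusted p = 0.060). The 3 chains form 1 protein, and their double mutant values were lowest in replicate 3 in each case. Ceruloplasmin (Cp), a copper ferroxidase, read 9.30, 9.24, 8.98 and 9.38 against 7.81, 7.57, 7.50 and 7.51 (1.64 ± 0.10 SE, adjusted p = 4.9e-10). The protease inhibitor gene Serpina3n read 6.31, 5.31, 6.55 and 6.01 against 4.01, 3.99, 4.65 and 3.73 (1.95 ± 0.26 SE, adjusted p = 2.5e-05), and Lrg1, a leucine-rich plasma protein, rose by 1.05 (adjusted p = 0.00016). Liver markers did not move as a set: of 12 tested, 2 rose (Fgb and Apoa1) and 1 fell (Serpina1a), and the list averaged 5.09 to 5.32 in the double mutant arrays and 5.11 to 5.29 in the Pbrm1 mutant arrays.

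STAT3 binds TTCNNNGAA, and the upstream windows of the fibrinogen chains of largest rise, in the format used above with capitals for that motif, are shown because their values moved together.
Fgg, chr3:83007474-83007723, plus strand: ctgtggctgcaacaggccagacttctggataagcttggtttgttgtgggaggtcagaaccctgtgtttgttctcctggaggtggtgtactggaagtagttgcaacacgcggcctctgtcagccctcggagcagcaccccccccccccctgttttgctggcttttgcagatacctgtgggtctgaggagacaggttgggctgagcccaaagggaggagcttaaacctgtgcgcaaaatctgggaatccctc
Fga, chr3:83025903-83026152, plus strand: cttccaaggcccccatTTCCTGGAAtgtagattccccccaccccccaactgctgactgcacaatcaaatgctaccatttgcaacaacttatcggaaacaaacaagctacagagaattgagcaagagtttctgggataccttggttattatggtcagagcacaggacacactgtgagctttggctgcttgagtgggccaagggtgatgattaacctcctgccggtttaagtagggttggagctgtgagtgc

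Fga held 1 match and Fgg 0, as did Osmr and Cp. Among called acute phase and STAT3 genes 3 of 14 (21.4%) had the motif in the window, against 2 of 14 that were not called (14.3%) and 8.13% of all genes in the table. Fga was added after its values were seen.

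Among complement genes the calls were mostly rises. Of 20 tested, 7 rose (35.0%) and 1 fell (5.0%), median 0.24, against 6.82% and 3.37% of all genes. C4b, a component of the classical pathway, read 8.28, 8.16, 7.36 and 7.78 in the double mutants and 5.15, 5.39, 5.87 and 5.39 in the Pbrm1 mutants, 5.42-fold (2.44 ± 0.21 SE, adjusted p = 7.7e-08). C7, part of the membrane attack complex, read 8.23, 7.99, 8.32 and 8.32 against 5.81, 5.85, 6.70 and 6.34 (2.05 ± 0.16 SE, adjusted p = 2.5e-08). Hc, which encodes C5, was at background in the Pbrm1 mutants (3.79, 3.57, 3.64 and 3.72) and at 5.46, 5.50, 6.50 and 6.95 in the double mutants (adjusted p = 5.8e-07). In Hc the double mutant arrays formed 2 levels, with replicates 3 and 4 higher. Among regulators, the C1 inhibitor gene Serping1 rose from 8.13 ± 0.15 to 9.54 ± 0.09 (1.4 ± 0.09 SE, adjusted p = 7.4e-10) and factor I (Cfi) from 4.39 ± 0.27 to 6.20 ± 0.46 (1.82 ± 0.21 SE, adjusted p = 3.5e-06). Cd59a, which protects cells from the membrane attack complex, fell: 7.64, 7.48, 7.31 and 7.47 against 8.11, 8.21, 8.39 and 8.21 (-0.75 ± 0.08 SE, adjusted p = 2.5e-06).

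Immune cell genes were dominated by macrophages. Of 22 macrophage markers tested, 17 rose and 0 fell, median 0.91, and the list averaged 6.20 to 6.47 in the double mutant arrays and 5.46 to 5.53 in the Pbrm1 mutant arrays. Cathepsin S (Ctss) read 7.83, 7.71, 8.01 and 8.08 against 6.29, 6.53, 6.39 and 6.55 (1.48 ± 0.10 SE, adjusted p = 4.5e-09), the leukocyte tetraspanin Cd53 7.31, 7.20, 7.15 and 7.32 against 5.81, 6.16, 5.98 and 6.06 (1.24 ± 0.10 SE, adjusted p = 2.2e-08), and the integrin Itgam (CD11b) 6.01, 5.34, 6.01 and 6.18 against 4.36, 4.41, 4.48 and 4.46 (1.47 ± 0.16 SE, adjusted p = 1.6e-06). The groups were apart in all 3 genes. In whole cortex, more cells of a type and more RNA per cell cannot be told apart, nor can fewer cells and less RNA per cell. Markers of other leukocytes moved at shares near the background: 1 of 12 neutrophil genes (Il1b), 1 of 15 T and NK cell genes (Il7r) and 1 of 11 B and plasma cell genes (Jchain) rose, and 0 fell. Jchain, which joins secreted immunoglobulins, read 5.94, 5.95, 6.96 and 6.79 against 5.16, 5.0, 4.98 and 5.09 (1.37 ± 0.22 SE, adjusted p = 0.00027). Il7r was near background in the Pbrm1 mutants (3.24, 3.05, 3.01 and 3.26) and at 4.72, 4.40, 4.31 and 4.43 in the double mutants.

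Antigen presentation and inflammatory signalling rose beside them. Of 9 genes of MHC class II presentation 7 rose and 0 fell, median 0.73, among them H2-Aa, an alpha chain of the class II molecule, at 9.0, 8.88, 8.83 and 9.08 against 7.90, 7.88, 7.64 and 7.69 (1.18 ± 0.09 SE, adjusted p = 3.3e-08), and Ciita, the master activator of these genes (0.73 ± 0.10 SE, adjusted p = 3.2e-05). Class II genes differ between strains, and strain alleles and genotype cannot be told apart here. Of 24 genes of the NF-kappaB pathway and the TNF family 15 rose and 0 fell, median 0.55. Tnfsf13b, the B cell survival factor BAFF, read 6.30, 6.15, 6.29 and 6.19 against 5.20, 5.10, 5.34 and 5.19 (1.02 ± 0.11 SE, adjusted p = 1.6e-06). Among 24 chemokines 7 rose and 1 fell (Cxcl14), median 0.13; Cx3cl1, the ligand that holds mononuclear phagocytes, read 8.41, 8.32, 8.33 and 8.32 against 7.44, 7.53, 7.74 and 7.63 (0.76 ± 0.08 SE, adjusted p = 1.6e-06), and Ccl5 rose by 1.13 (adjusted p = 7.1e-05). Interferon response genes rose at 7 of 26 with 0 lower, median 0.30 (4 rose without Pbrm1 mutant replicates 3 and 4). Without double mutant replicates 1 to 3 the median was 0.33. The list averaged 5.50 to 5.62 in double mutant and 5.24 to 5.36 in Pbrm1 mutant arrays. Wild-type arrays, at 5.48 to 5.62, matched the double mutants, and Vhl mutant arrays lay at 5.80 to 6.03. The example of smallest p, the antiviral gene Oasl2, differed by 0.77 (adjusted p = 0.00021). Its means were 6.11 ± 0.17 in double mutants, 5.35 ± 0.20 in Pbrm1 mutants and 5.92 ± 0.14 in wild type. Ifi44l, a gene of this response outside the list, went from 2.52, 2.57, 2.60 and 2.61 in the Pbrm1 mutants, below background, to 4.45, 3.97, 5.58 and 5.02 in the double mutants.

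**Figure D4:**
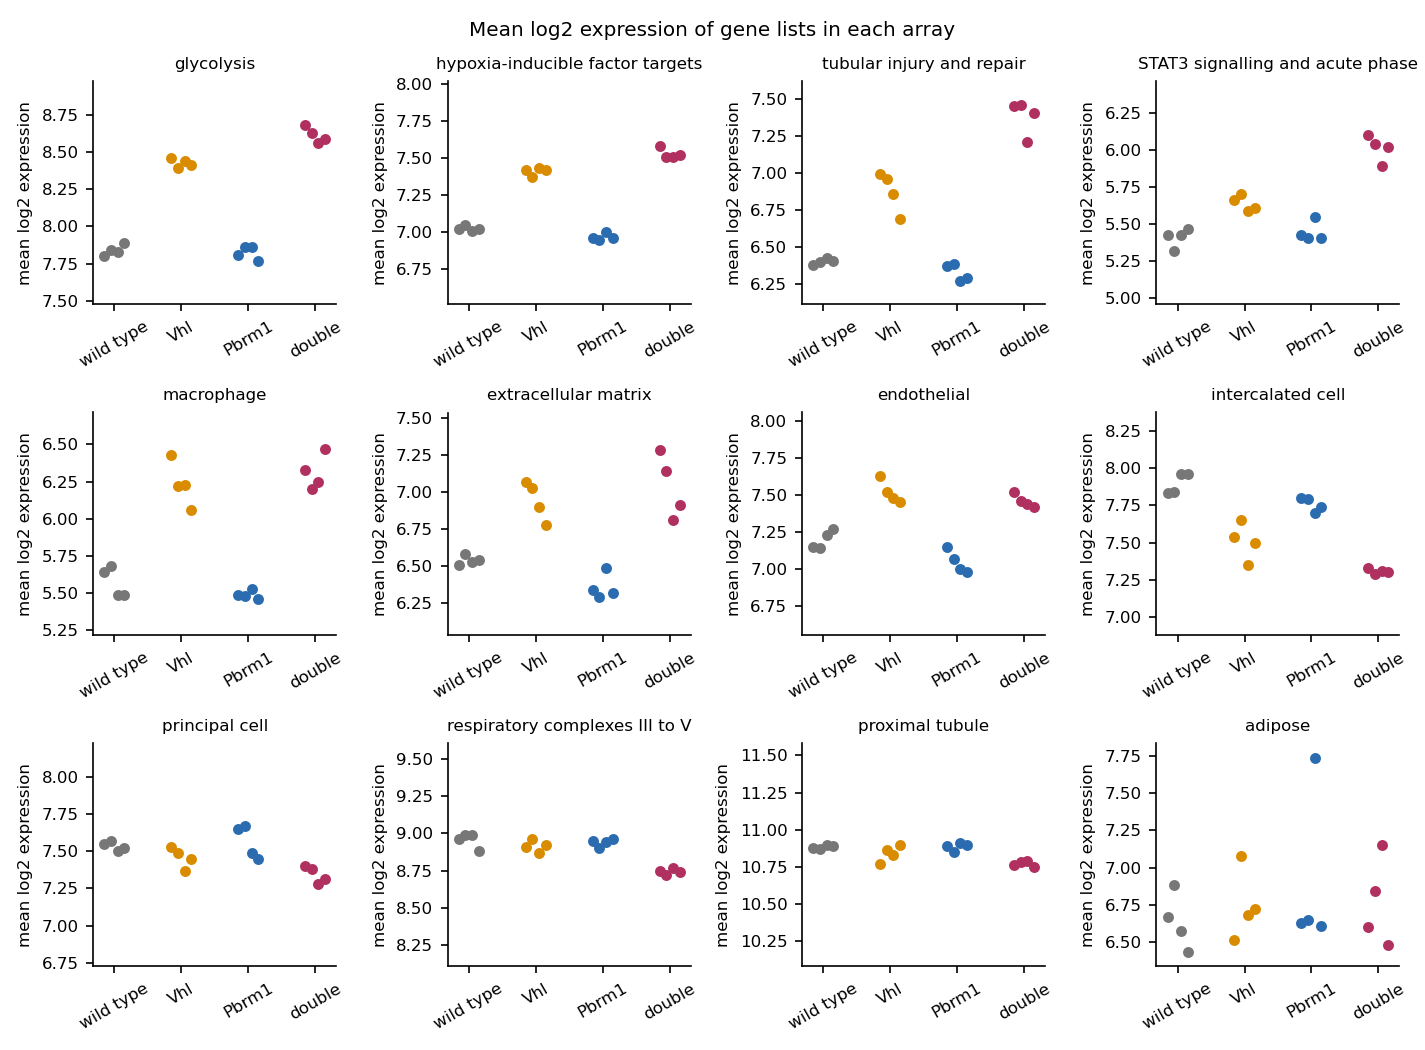
Mean log2 expression over the tested members of 12 gene lists in each array (points); x axis, the 4 genotypes; each panel has its own y axis of equal span. Glycolysis, injury, STAT3, macrophage and endothelial means are higher in the double mutant than in the Pbrm1 mutant arrays without overlap, intercalated cell and respiratory chain means are lower, and adipose genes stand out in Pbrm1 mutant replicate 3.

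Matrix genes rose in number: 23 of 38 rose and 3 fell (Col4a3, Col4a4 and Col5a2), median 0.58. Fibronectin (Fn1) read 8.86, 8.77, 8.49 and 8.85 in the double mutants and 6.91, 6.75, 7.27 and 6.86 in the Pbrm1 mutants, 3.49-fold (1.80 ± 0.12 SE, adjusted p = 1.8e-09). Col12a1, a collagen that binds fibrils, read 7.52, 7.01, 6.91 and 7.16 against 5.0, 4.88, 5.12 and 4.90 (2.18 ± 0.16 SE, adjusted p = 1.6e-08). Thrombospondin 1 (Thbs1), a matrix protein that activates latent TGF-beta, read 9.27, 9.12, 8.59 and 9.03 against 7.60, 7.91, 7.39 and 7.22 (1.47 ± 0.15 SE, adjusted p = 6.9e-07). Each of these had its lowest double mutant value in replicate 3 and no overlap between groups. The fibrillar collagen Col3a1 was more variable, 8.25, 7.98, 7.20 and 7.95 against 6.33, 5.90, 6.75 and 5.78 (1.66 ± 0.21 SE, adjusted p = 1.7e-05). Tgfbi, a matrix protein induced by TGF-beta, rose by 1.29 (adjusted p = 1.4e-06). Within the TGF-beta pathway 5 of 24 genes rose and 1 fell (Bmp7), median 0.20, with the ligand gene Tgfb1 at 7.33, 7.37, 7.46 and 7.40 against 6.78, 6.67, 6.75 and 6.79 (0.65 ± 0.10 SE, adjusted p = 0.00014). Of 13 genes of epithelial to mesenchymal transition 6 rose and 0 fell, median 0.34. Collagen lists overlap with fibroblast markers, of which 7 of 12 rose and 1 fell (Fap), median 0.63.

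Vessel genes rose by smaller steps. Of 22 endothelial markers 16 rose and 0 fell, median 0.41. Endomucin (Emcn) read 9.41, 9.46, 9.39 and 9.45 against 8.93, 8.83, 8.97 and 8.75 (0.56 ± 0.07 SE, adjusted p = 1.9e-05), and Pecam1 (CD31) read 8.41, 8.35, 8.12 and 8.25 against 7.75, 7.77, 7.74 and 7.71 (0.54 ± 0.07 SE, adjusted p = 3.5e-05), with no overlap in either. Of 10 smooth muscle, pericyte and renin cell genes 4 rose and 0 fell, median 0.52, with the mural cell receptor gene Notch3 at 7.02, 6.92, 6.99 and 7.06 against 5.73, 6.04, 6.08 and 6.03 (1.03 ± 0.10 SE, adjusted p = 4.1e-07). Without double mutant replicates 1 to 3 the rising counts were 6 for endothelial genes and 13 for matrix genes, with medians of 0.39 and 0.34, and 2 for smooth muscle, pericyte and renin cell genes, 3 each for fibroblast, epithelial to mesenchymal transition and TGF-beta genes. With arrays averaged per number 9 endothelial and 20 matrix genes rose.

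Early response genes were higher as well: 13 of 22 rose and 0 fell, median 0.53 (7 rose, median 0.56, without double mutant replicates 1 to 3). Myc, the growth-promoting transcription factor, read 7.54, 7.36, 7.49 and 7.45 in the double mutants and 6.31, 6.14, 6.21 and 6.06 in the Pbrm1 mutants (1.28 ± 0.11 SE, adjusted p = 5.2e-08). Btg2, which restrains proliferation, rose by 0.92 (adjusted p = 6.7e-06) and the AP-1 subunit gene Fosl2 by 0.93 (9.2e-06). Cell cycle genes moved less, with 5 of 34 higher and 1 lower (Mcm6), median 0.14 (3 higher with arrays centred on their medians and 2 without double mutant replicates 1 to 3); Ccnd2, cyclin D2, read 6.90, 6.74, 6.86 and 6.77 against 5.94, 6.02, 6.06 and 6.04 (0.80 ± 0.12 SE, adjusted p = 7.4e-05). Of 21 p53 targets and cell cycle inhibitors 4 rose, Cdkn1a among them, and 1 fell (Ccng1), median 0.11. Heat shock chaperones had 0 higher and 2 lower of 14, median 0.06: Hspd1, the mitochondrial HSP60, fell by 0.27 (adjusted p = 0.0027; 0.053 and 0.077 with arrays averaged per number and without Pbrm1 mutant replicates 3 and 4), and its partner Hspe1 fell with it. The unfolded protein response had 3 of 15 higher and 0 lower, and NRF2 targets 1 of 21 higher and 0 lower.

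The clearest falls were in the collecting duct. Of 22 intercalated cell genes, which secrete acid or base, 13 fell and 0 rose, median -0.47, and the list averaged 7.29 to 7.33 in the double mutant arrays and 7.70 to 7.80 in the Pbrm1 mutant arrays. The ammonia channel gene Rhcg read 7.92, 7.98, 7.70 and 7.79 in the double mutants and 9.15, 9.05, 9.04 and 9.09 in the Pbrm1 mutants, 2.36-fold lower (-1.24 ± 0.08 SE, adjusted p = 3.1e-09). Pendrin (Slc26a4), the chloride-bicarbonate exchanger of the base-secreting type, read 7.27, 7.05, 7.09 and 7.03 against 8.45, 8.32, 8.04 and 8.01 (-1.10 ± 0.10 SE, adjusted p = 3.7e-07). The second ammonia transporter gene, Rhbg, read 7.11, 7.20, 6.88 and 6.94 against 8.34, 8.13, 8.19 and 8.34 (-1.22 ± 0.16 SE, adjusted p = 2.6e-05). The proton pump subunit gene Atp6v1b1 read 8.27, 8.24, 8.33 and 8.20 against 9.06, 8.88, 8.90 and 9.03 (-0.71 ± 0.08 SE, adjusted p = 2.7e-06). All 4 genes were lower in every double mutant array than in any Pbrm1 mutant array. The collecting duct is among the sites where Ksp-Cre is active, but whether deletion within these cells lowered their genes was not tested.

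Principal cells, which take up sodium and water, showed 6 lower and 0 higher of 15, median -0.13. Hsd11b2, the enzyme that shields the mineralocorticoid receptor from glucocorticoids, read 8.48, 8.40, 8.61 and 8.41 against 9.5, 9.48, 9.53 and 9.37, 2-fold lower (-1.0 ± 0.08 SE, adjusted p = 4.7e-08). Kcne1, a potassium channel subunit, read 5.78, 5.83, 5.63 and 5.80 against 7.18, 7.07, 6.96 and 7.02 (-1.29 ± 0.12 SE, adjusted p = 2.8e-07). The 4 others that fell were Aqp3 and the 3 sodium channel subunits Scnn1a, Scnn1b and Scnn1g.

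In the upstream nephron the changes were smaller. Of 29 proximal tubule genes 8 fell and 2 rose, median -0.15 (5 fell without Pbrm1 mutant replicates 3 and 4). The glucose transporter gene Slc5a2 (SGLT2) read 10.48, 10.52, 10.53 and 10.38 against 10.99, 10.93, 11.12 and 11.12 (-0.57 ± 0.06 SE, adjusted p = 3.9e-06), and the phosphate transporter gene Slc34a1, at 12.66 ± 0.03 in the double mutants and 12.93 ± 0.04 in the Pbrm1 mutants, fell by 0.28 (adjusted p = 3.1e-05). Both differences are small in size and large beside the spread of their arrays. Of 16 thick ascending limb genes 3 rose and 4 fell, median -0.09. Umod, the uromodulin of urine, rose (0.32 ± 0.06 SE, adjusted p = 0.00096) while Bsnd, the chloride channel subunit barttin, fell (-0.64 ± 0.09 SE, adjusted p = 3.1e-05; adjusted p = 0.054 without double mutant replicates 1 to 3). Of 17 distal convoluted tubule genes 2 rose and 3 fell, median -0.05, and the calcium-binding protein gene Calb1 dropped by 0.76 (9.39, 9.5, 9.80 and 9.54 against 10.31, 10.21, 10.39 and 10.36; adjusted p = 0.0016, and 0.063 without double mutant replicates 1 to 3). Podocyte genes rose at 1 of 9 (Podxl, 11.1% against 6.82% of all genes) and fell at 0. With arrays averaged per description number 0 podocyte genes were called.

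Respiratory chain genes fell by small amounts. Of 35 genes of complexes III to V 10 fell and 0 rose, median -0.18, and of 32 genes of complex I 5 fell and 0 rose, median -0.14, where 3.37% of all genes fell. Centred on array medians, the falls were 17 and 8. With arrays averaged per description number they were 5 and 2, and without double mutant replicates 1 to 3 they were 2 and 1, with medians of -0.18 and -0.16. Ndufc2, a membrane-arm subunit of complex I, was the exception in size: 8.84, 8.80, 8.93 and 8.70 against 9.76, 9.71, 9.67 and 9.67, 1.85-fold lower (-0.89 ± 0.07 SE, adjusted p = 2.5e-08). Uqcrb, a subunit of complex III, read 10.63, 10.48, 10.58 and 10.69 against 10.85, 11.03, 11.07 and 11.05 (-0.40 ± 0.07 SE, adjusted p = 0.00058; 0.14 without double mutant replicates 1 to 3). The double mutant mean of Uqcrb, 10.59 ± 0.09, was near that of wild type, 10.63 ± 0.12. Every wild-type array lay below every Pbrm1 mutant array for this gene. Its Vhl mutant mean, 10.91 ± 0.09, was also above wild type (0.28 ± 0.07 SE, adjusted p = 0.026). Of 17 genes of the tricarboxylic acid cycle 2 fell and 0 rose, median -0.12 (7 fell with arrays centred on their medians).

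Lipid genes had no common direction. Of 26 fatty acid oxidation genes and PPAR-alpha targets 6 fell and 2 rose (Cyp4a14 and Pdk4), median -0.07, and with arrays averaged per number 1 fell. Acads, the short-chain acyl-CoA dehydrogenase, fell from 9.72 ± 0.08 to 9.24 ± 0.14 (-0.48 ± 0.08 SE, adjusted p = 0.00038). Of 28 lipid droplet and triglyceride genes 3 rose and 3 fell, median 0.00. Lpl, the lipase that releases fatty acids from lipoproteins, read 9.97, 9.93, 10.08 and 9.95 against 10.66, 10.71, 11.16 and 11.04 (-0.91 ± 0.13 SE, adjusted p = 7.5e-05). It is also an adipose gene, the 1 of 10 on that list that fell, while 0 rose. Its highest values were in Pbrm1 mutant replicates 3 and 4, and without replicate 3 of both groups, the arrays of highest adipose markers, it differed by -0.86 (adjusted p = 0.0006). Of 18 cholesterol synthesis genes 2 rose and 2 fell, median 0.02, and Hmgcs1, which makes HMG-CoA, read 11.20, 11.16, 10.86 and 10.83 against 10.20, 10.25, 10.24 and 10.22 (0.78 ± 0.08 SE, adjusted p = 4.4e-07); its Vhl mutant and wild-type means were 11.26 ± 0.10 and 11.27 ± 0.03. Of 18 iron and heme genes 3 rose, Lcn2 and Cp among them, and 1 fell (Hebp1). The SWI/SNF subunits, among which PBAF is built, had 0 of 24 higher and 1 lower (Smarca2), and 15 renal cancer genes had 0 in either direction.

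For some genes the Pbrm1 mutants, not the double mutants, stood away from the other groups. Azgp1, a lipid-mobilizing plasma glycoprotein, read 8.44, 8.45, 8.12 and 8.02 in the double mutants and 4.40, 5.24, 5.28 and 5.09 in the Pbrm1 mutants, 9.48-fold higher (3.24 ± 0.18 SE, adjusted p = 2.8e-10). Its Vhl mutant and wild-type means were 8.50 ± 0.28 and 9.35 ± 0.25, so the double mutants were near the Vhl mutants and below wild type. Akr1c18, a dehydrogenase that inactivates progesterone, ran the other way: 7.33, 7.39, 8.86 and 9.01 against 10.17, 10.29, 10.50 and 10.69 (-2.23 ± 0.30 SE, adjusted p = 3.3e-05), with 7.96 ± 0.25 in the Vhl mutants and 8.13 ± 0.33 in wild type. Within the double mutants replicates 3 and 4 were higher than 1 and 2, and all 4 lay below the Pbrm1 mutant arrays. Aldh1a1, a retinal dehydrogenase, read 7.48, 7.73, 6.95 and 6.93 against 9.11, 9.06, 8.74 and 8.69 (-1.64 ± 0.16 SE, adjusted p = 4.5e-07), and its wild-type mean was 6.79 ± 0.20. Ugt2a3, a glucuronosyltransferase, read 3.49, 3.70, 4.38 and 3.86 against 5.61, 5.24, 5.33 and 5.53 (-1.57 ± 0.16 SE, adjusted p = 1e-06), with 3.18 ± 0.06 in the Vhl mutants and 3.56 ± 0.18 in wild type, both below background. In these 3 enzymes the Pbrm1 mutants held the highest of the 4 group means. Some genes described above as higher in the double mutants were also lower in the Pbrm1 mutants than in wild type. Pbrm1 mutant and wild-type means were 6.95 ± 0.22 and 7.82 ± 0.15 for Fn1, and 6.14 ± 0.24 and 6.76 ± 0.18 for Pdgfd. They were 6.02 ± 0.05 and 6.56 ± 0.26 for Ccnd2, and 4.39 ± 0.27 and 5.50 ± 0.22 for Cfi. Others, such as Egln3 (6.58 ± 0.35 and 6.47 ± 0.26), were not lower.

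Other large falls were in single genes outside the lists. Tldc2, of the TLDc domain family, read 6.75, 6.77, 6.88 and 6.79 in the double mutants and 8.58, 8.65, 8.09 and 8.17 in the Pbrm1 mutants (-1.58 ± 0.12 SE, adjusted p = 1.1e-08). Nxpe3, of the neurexophilin and PC-esterase domain family, read 5.92, 5.75, 5.43 and 5.26 against 7.24, 7.51, 7.42 and 7.27 (-1.79 ± 0.12 SE, adjusted p = 2.2e-09), with 7.0 ± 0.05 and 6.98 ± 0.11 in Vhl mutants and wild type. The flavin monooxygenase Fmo4 read 7.35, 7.58, 5.83 and 5.70 against 8.33, 8.13, 8.34 and 8.30 (-1.70 ± 0.31 SE, adjusted p = 0.00068), and the proton pump Atp4a 6.14, 6.30, 4.76 and 4.83 against 6.95, 6.76, 7.11 and 7.29 (-1.55 ± 0.27 SE, adjusted p = 0.00045). In both, double mutant replicates 3 and 4 stood more than 1 unit below replicates 1 and 2, a split that cuts across the description numbers.

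Large differences lay in several Serpina and ribosomal protein genes, some of which have near-identical copies. Serpina1d, a copy of the alpha-1-antitrypsin gene, read 9.74, 9.81, 9.37 and 9.47 in the Pbrm1 mutants and 3.22, 2.71, 3.09 and 2.86 in the double mutants, below background, with 10.37 ± 0.65 in the Vhl mutants and 9.73 ± 0.34 in wild type (adjusted p = 3.2e-13). Serpina1c fell to 3.14, 2.99, 3.01 and 2.94 from 5.77, 5.96, 4.73 and 4.59. Serpina6, the corticosteroid-binding globulin gene of the same cluster, rose to 6.32, 6.46, 7.14 and 7.0 from 4.07, 3.49, 3.97 and 4.09 (2.84 ± 0.18 SE, adjusted p = 1.1e-09), and Serpina10, an inhibitor of clotting factors, to 7.78, 7.24, 7.87 and 8.26 from 4.58, 4.87, 4.39 and 4.39 (3.25 ± 0.19 SE, adjusted p = 4.1e-10). Within 8 places of Serpina1d on either side in the RefSeq order, 7 other genes were tested and 3 called, 1 higher and 2 lower, and Serpina1b, also in that stretch, differed by 0.01. A pair of ribosomal protein genes showed the same kind of step: Rps13 read 5.25, 5.67, 5.38 and 5.61 in the Pbrm1 mutants and 2.74, 2.36, 2.45 and 2.14 in the double mutants, below background, and Rps3a1 read 10.14, 9.92, 9.83 and 10.46 in the double mutants and 8.0, 8.07, 8.0 and 7.70 in the Pbrm1 mutants, while its second probe set differed by -0.02.

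Trim12a and Trim12c, neighbouring copies of an antiviral family, moved in opposite directions, from 5.85 ± 0.26 to 4.04 ± 0.39 and from 2.71 ± 0.27 to 4.22 ± 0.47, the last pair starting below background. Of 7 other tested genes within 8 places of Trim12a, Trim12c was the 1 called. The pheromone receptor gene Vmn1r20 fell from 5.85, 5.70, 5.22 and 5.38 to 4.08, 4.08, 3.02 and 2.43. The copy number of Serpina1 genes is known to differ between inbred strains, and probes may not fully separate near-identical copies. The Serpina1 probe sets did not all read alike: Serpina1b averaged 4.77 in the Pbrm1 mutants and 4.78 in the double mutants, Serpina1d 9.6 and 2.97. The mutants were of mixed strain, so strain alleles and genotype cannot be told apart for the Serpina, ribosomal protein, Trim12 and Vmn1r20 genes. Around Vhl itself, where alleles linked to the floxed copy would lie, 1 of 19 tested genes rose (Il17re, 5.26%) and 0 fell. The shares over all genes were 6.82% and 3.37%. A count this small is near those shares, and linked alleles were not tested.

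**Figure D5:**
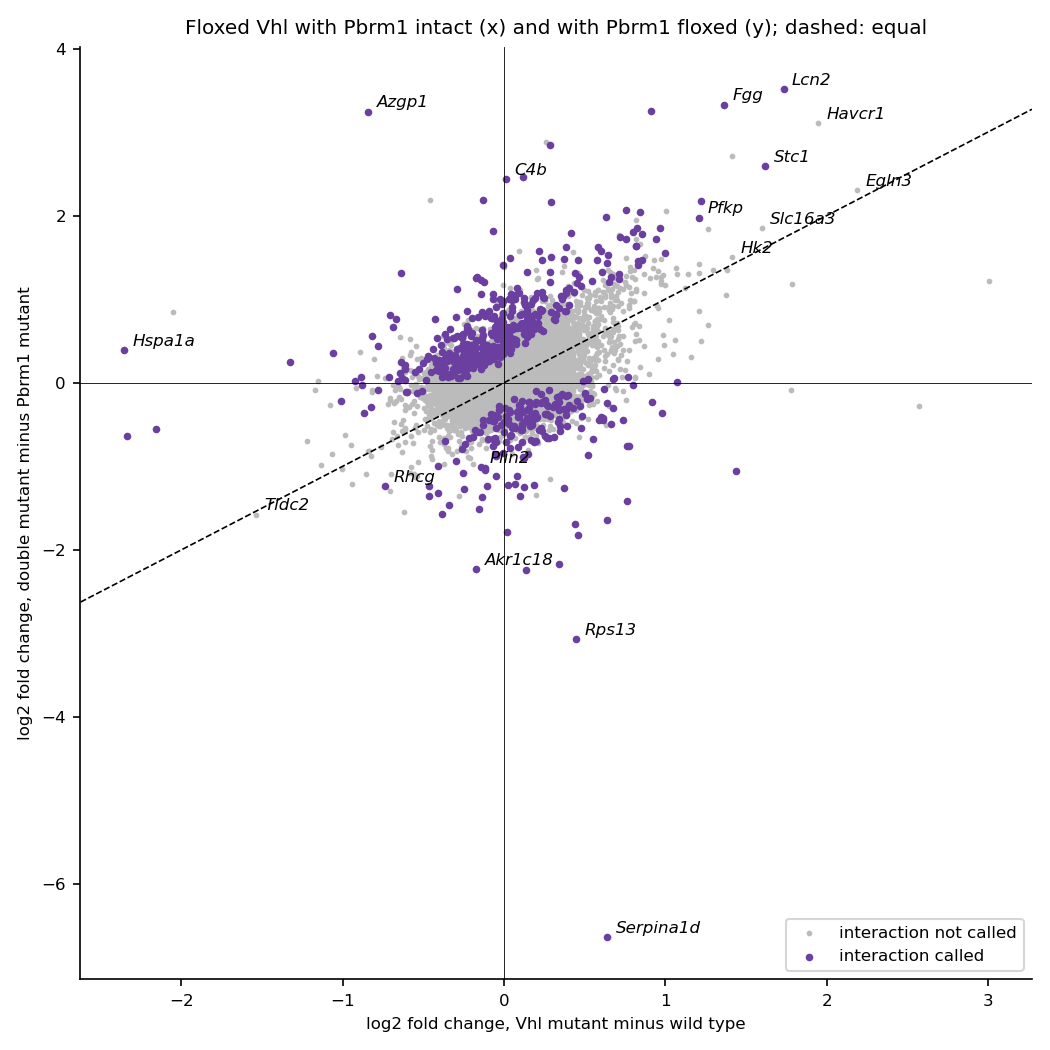
Each point is a gene: x axis, log2 fold change of Vhl mutant over wild-type arrays; y axis, log2 fold change of double mutant over Pbrm1 mutant arrays; the dashed line marks equal changes and purple points have a called interaction (583). Egln3, Slc16a3, Hk2 and Tldc2 lie near the line, Lcn2 and Fgg above it, and Azgp1, C4b and Serpina1d far from it.

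The same deletion with Pbrm1 intact can be read from the Vhl mutant and wild-type arrays, which share no array with the double and Pbrm1 mutants but also differ in strain. That comparison called 851 genes (3.84%), 453 higher (2.04%) and 398 lower (1.79%), or 355 and 622 with arrays centred on their medians. Leaving out wild-type replicate 1 gave 545 and leaving out Vhl mutant replicate 3 gave 564. Of its calls, 410 were called in the same direction among the double mutants (317 higher, 93 lower), which is 48.2% of the Vhl mutant calls and 18.1% of the double mutant calls, and 17 were called in opposite directions. Across all genes the log2 differences correlated at r = 0.34, a description over genes, which are not independent. For 4 genes switched on by HIF, chosen after their values were seen, no difference between the settings was detected: Egln3 differed by 2.19 between Vhl mutants and wild type, Slc16a3 by 1.60, Hk2 by 1.41 and Vegfa by 0.27, and the difference between the settings, tested as the interaction, was 0.11, 0.26, 0.09 and 0.00 (adjusted p = 0.84, 0.49, 0.85 and 1). Tldc2 was lower in both settings, at -1.54 between Vhl mutants and wild type and -1.58 here (-0.04 ± 0.16 SE, adjusted p = 0.94 for the interaction). These p-values do not show equality: with the median standard error of 0.163 of an interaction, small differences would be missed.

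The interaction was called at 583 genes (2.63%), 394 positive and 189 negative (296 and 275 with quantile normalization), and 452 of the 2260 double mutant calls had one. The count was sensitive to the arrays: 99 with arrays averaged per description number, 236 without double mutant replicates 1 to 3, 290 without wild-type replicates 1 and 2, 300 without Pbrm1 mutant replicates 3 and 4 and 988 without wild-type replicates 3 and 4. Of 56 named genes with a called interaction, 28 lost the call in at least 1 alternative setting; Pfkp, Plin2, Lcn2, Fgg and C4b kept it in all. Pfkp rose by 1.21 with Pbrm1 intact and by 1.98 without it (interaction 0.77 ± 0.10 SE, adjusted p = 0.00031). Pfkl rose by 1.0 and 1.56 (0.56 ± 0.12 SE, adjusted p = 0.015), an interaction lost in 3 alternative settings. Its Pbrm1 mutant mean, 7.36 ± 0.09, was below wild type (7.61 ± 0.14). The double mutant mean of Pfkl, 8.91 ± 0.14, was above the Vhl mutants (8.61 ± 0.09). Plin2 changed by -0.14 (adjusted p = 0.38) with Pbrm1 intact and by -1.01 without it (-0.86 ± 0.11 SE, adjusted p = 0.00018). Stc1 rose by 1.62 and 2.59 (0.98 ± 0.19 SE, adjusted p = 0.0063), an interaction lost in 2 alternative settings. Its Pbrm1 mutant mean, 5.27 ± 0.27, was below wild type (5.93 ± 0.12), and its double mutant mean, 7.86 ± 0.03, was nearer to the Vhl mutants (7.55 ± 0.27). Much of the Stc1 interaction thus lay in the lower Pbrm1 mutant values. The other called interactions in the HIF target and pathway lists were Plod2 (0.63 ± 0.15 SE, adjusted p = 0.022; lost in 8 alternative settings), Arnt2 (0.67 ± 0.11 SE, adjusted p = 0.0017) and, close to the threshold, the target Bhlhe40.

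Injury, acute phase and complement genes held many of these. Of the 24 injury genes 8 had a positive and 0 a negative interaction, of the 33 STAT3 and acute phase genes 6 and 0, and of the 20 complement genes 7 and 1, where all genes gave 1.78% and 0.852%. Lcn2 rose by 1.73 between Vhl mutants and wild type and by 3.51 between the Pbrm1-deleted groups (1.78 ± 0.24 SE, adjusted p = 0.00028). Fgg rose by 1.37 and 3.33 (1.96 ± 0.28 SE, adjusted p = 0.00056), and Osmr by 0.97 and 1.85 (0.88 ± 0.15 SE, adjusted p = 0.002). Stat3 was not called with Pbrm1 intact (0.21, adjusted p = 0.072), and its interaction was 0.59 ± 0.09 SE, adjusted p = 0.0011. C4b did not pass the test with Pbrm1 intact (0.01, adjusted p = 0.99), and its interaction was 2.42 ± 0.29 SE, adjusted p = 7.5e-05. Havcr1, whose Pbrm1 mutant arrays were split, had an uncalled interaction (1.16 ± 0.67 SE, adjusted p = 0.42). Macrophage genes, by contrast, rose in both settings, at 18 of 22 between Vhl mutants and wild type and 17 of 22 here, with 2 positive and 1 negative interactions. Intercalated cell genes fell in both, at 10 and 13 of 22, with 0 positive and 1 negative interactions; the 1 was Rhcg (-0.50 ± 0.12 SE, adjusted p = 0.025), which was lost in 10 alternative settings. Of 14 heat shock chaperones 7 fell between Vhl mutants and wild type and 2 here, and 4 had a positive interaction; the list averaged 8.73 and 8.78 in wild-type replicates 1 and 2 but 8.18 and 8.13 in 3 and 4. Hspa1a, an inducible HSP70, read 9.80, 10.02, 7.51 and 7.38 in wild type, split by description number, averaged 6.32 ± 0.23 in the Vhl mutants and overlapped between double mutants (7.65, 7.53, 6.63 and 6.80) and Pbrm1 mutants (7.43, 7.38, 6.27 and 5.92), with the lower values of both groups in replicates 3 and 4. Its interaction, 2.75 (adjusted p = 0.034), lost the call in 17 alternative settings (adjusted p up to 0.3), and without wild-type replicates 1 and 2 it was 1.53 (adjusted p = 0.12).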

How the data were processed

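Biotin-labelled kidney cortex RNA (Trizol) was hybridized to Affymetrix mouse arrays, as the labels' protocols state. The authors' deposited log2 values come from RMA (robust multi-array averaging), for which the submitters' processing notes name Expression Console 1.4. The genome build of the array is not given in the sources used here. Of 41345 probe sets, 25335 were annotated and the 23521 with 1 symbol were used (1814 had several). The brightest probe set stood for each of the 1082 genes with more than 1, giving 22180 genes without a filter on low values. Precision is limited by the array number (median standard error of a difference 0.116).

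All 16 arrays were fitted in limma 3.58.1 (statmod 1.5.0, R 4.3.3) with 4 group means, a random block for the description number (correlation 0.0838) and a prior variance that follows mean expression. The block weights double mutant replicate 4 more, so differences depart slightly from those of group means. The interaction is double minus Pbrm1 mutant, minus Vhl mutant minus wild type. Double mutant replicates 2 and 3 carry 1 description, but correlated at 0.9923, below replicates 1 and 2 (0.9954), and were kept apart; replicate 3 correlated most with replicate 4 (0.9945), which has another number.

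The comparison, gene lists and rules were chosen with earlier results of these data known. Named were the deleted genes, the 12 largest rises and falls without overlap, up to 5 called members per list by smallest p, members that fill the roles of the hypoxia, glycolysis, injury and STAT3 lists, and the 5 most extreme interactions each way. Cdh16, Cfi, Rps3a1, Trim12c and genes without a value were added after their values were seen. Simulated data for this comparison (22180 genes) gave back 80.6% of 1.5-fold, 98.5% of 2-fold and 100% of 4-fold changes, with 11.8% false calls, and 0 calls without planted changes. Motifs were counted in the 250 bases before each RefSeq start. Python 3.11.15 was used with numpy 2.4.6, matplotlib 3.10.9 and pandas 2.3.3. Settings varied were the block, averaging or merging of arrays, probe set choice and dim genes, scaling, weights, trend, groups in the fit, a 1.5-fold minimum and arrays left out; leaving out the arrays of highest adipose markers and giving double mutant replicate 3 the number of replicate 4 were chosen after seeing the data.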

Additional observations from a re-analysis of the deposited data

Results flagged for a closer look

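For 118 named genes, the 4 arrays of the double mutants and of the Pbrm1 mutants were searched for 1 value far from the other 3, and 13 of 236 sets had one; chance flags about 1 in 20 such sets. Double mutant replicate 3 was the array apart, and the lowest, in 6 of them. It read 5.51 for Edn1 (others 6.23 to 6.36), 4.75 for Fgb (5.94 to 6.12), 5.51 for Cfi (6.39 to 6.45), 10.42 for Pkm (10.63 to 10.67), 6.86 for Krt18 (7.20 to 7.23) and 5.74 for Lrg1 (6.05 to 6.10), and in each it stayed above every Pbrm1 mutant array. Double mutant replicate 1 stood above the others for Cdkn1a (8.82), Fosl2 (7.81) and Cx3cl1 (8.41). Among the Pbrm1 mutants, replicate 2 was high for Slc2a1 (8.78), replicate 3 high for Serping1 (8.36), replicate 4 low for Aldoc (6.09) and replicate 1 low for Notch3 (5.73).

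The difference made by floxed Vhl was tested against the same difference with Pbrm1 intact, and for 56 of the named genes the 2 differed in limma, 37 with a more positive and 19 with a more negative value where Pbrm1 was also deleted. The wild-type strain enters each of these. On the log2 scale the more positive values were 4.09 for Azgp1, 2.75 for Hspa1a (a call lost in 17 alternative settings, with a wild-type group split between replicates 1 and 2 and replicates 3 and 4), 2.56 for Serpina6, 2.42 for C4b, 2.34 for Hc, 2.33 for Serpina10, 2.32 for Ifi44l, 1.96 for Fgg, 1.89 for Cfi, 1.87 for Rps3a1 and 1.78 for Lcn2. Between 1 and 1.5 lay Trim12c (1.46), Fga (1.32), Thbs1 (1.24), C7 (1.21), Il7r (1.03), Edn1 (1.01) and Fn1 (1.0). Smaller ones were 0.98 for Stc1, 0.95 for Col12a1, 0.92 for Vcam1, 0.89 for Itgam, 0.88 for Osmr, 0.82 for Cp, 0.82 for Cdkn1a, 0.79 for Hmgcs1, 0.78 for Krt19, 0.77 for Pfkp, 0.76 for Ccnd2 and 0.74 for Pdgfd. The lowest were 0.67 for Arnt2, 0.63 for Plod2, 0.62 for Cx3cl1, 0.59 for Stat3, 0.58 for Serping1, 0.56 for Pfkl and 0.53 for Cd53.

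The more negative values were -7.27 for Serpina1d, -3.52 for Rps13, -2.51 for Vmn1r20, -2.49 for 9030619P08Rik, -2.38 for Serpina1c, -2.28 for Trim12a, -2.28 for Aldh1a1, -2.14 for Fmo4, -2.06 for Akr1c18 and -1.81 for Nxpe3. Those of Ugt2a3 (-1.19), Ndufc2 (-1.01), Plin2 (-0.86), Cd59a (-0.69), Uqcrb (-0.68), Hsd11b2 (-0.59), Rhcg (-0.50), Slc5a2 (-0.39) and Slc34a1 (-0.25) were smaller. Values that rest on a group mean under 3.72 (Serpina1d, Serpina1c, Rps13, Vmn1r20, Hc, Ifi44l, Il7r, Trim12c and Ugt2a3) depend on the background of the array. 9030619P08Rik, known by its clone name, whose double and Pbrm1 mutant arrays overlapped, entered through its interaction alone.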

How the results depend on the processing

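Of 112 named genes called between double and Pbrm1 mutants, 101 kept the call and its direction in every alternative that tested them; the 11 others lost it in 1 or 2 settings, with adjusted p between 0.052 and 0.36. Of 56 named interactions, 28 kept the call throughout and 28 lost it in at least 1 setting. Hif1a, not called here (-0.26), turned to 0.91 (adjusted p = 1.8e-05) with the mean of its probe sets, since they disagree. Against 2260 calls, averaging arrays per description number gave 1398, a 1.5-fold minimum 748, and leaving out 1 double or Pbrm1 mutant array or number between 1011 (without double mutant replicates 1 to 3) and 2057; leaving out arrays of the other groups, which share the spread, gave 2154 to 2636. For Vhl mutants against wild type (851), averaging gave 246, a 1.5-fold minimum 262, and leaving out arrays between 369 (without wild-type replicates 1 and 2) and 1021 (without 3 and 4). For the interaction (583), no description block gave 884, averaging 99, no trend 337, a 1.5-fold minimum 340, and leaving out arrays between 236 (without double mutant replicates 1 to 3) and 988 (without wild-type replicates 3 and 4). All other settings stayed within 1.5 times the main count. Averaging and leaving out arrays leave fewer units; beyond that the cause was not tested. Same-numbered double and Pbrm1 mutant arrays did not deviate together (r = 0.0567, 0.00196, 0.00491 and 0.0297), so the numbers do not pair them; with the replicate number as a block there were 2552 calls, 1098 for Vhl mutants against wild type and 839 for the interaction. Probe sets near background limit what can be seen in low genes, and 4 arrays a group limit small differences.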

Other observations

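Among 23 genes of the primary cilium, the sensory organelle of tubule cells, 2 rose and 0 fell between Pbrm1 and double mutants (1 fell at an unadjusted p under 0.05 in limma). The 8.7% that rose is near the 6.82% of all genes, and the median was 0.04, so the list as a whole did not stand out. The risers encode large proteins mutated in polycystic kidney disease: Pkd1 rose from 7.06 ± 0.12 to 7.51 ± 0.08 (adjusted p = 0.00036) and Pkhd1 from 9.53 ± 0.09 to 9.92 ± 0.08 (adjusted p = 0.00039). Of 11 kidney genes whose level depends on sex, 4 fell and 0 rose (1 at an unadjusted p under 0.05), against 3.37% and 6.82% of all genes. Akr1c18 fell from 10.41 ± 0.23 to 8.15 ± 0.91, Slco1a1 from 10.46 ± 0.24 to 9.93 ± 0.36, Cyp4b1 from 12.80 ± 0.01 to 12.51 ± 0.08 and Kap, an androgen-regulated tubule gene, from 12.88 ± 0.02 to 12.69 ± 0.07 (SD, n = 4 arrays). The list averaged 8.59 to 8.99 in the double mutant arrays, 9.10 to 9.18 in the Pbrm1 mutant arrays and 8.55 to 8.78 in wild type. The labels used here do not give the sex of the mice. With arrays averaged per description number 2 of the 4 were called.

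Of 16 genes that vary between mouse strains, 3 rose (the class I gene H2-K1, Cap1 and Nnt) and 1 fell (Trim12a, from 5.85 ± 0.26 to 4.04 ± 0.39); averaged per description number, 1 rose and 1 fell. Of 7 urothelium and papilla genes 0 were called in limma, and 2 were higher at an unadjusted p under 0.05; the list averaged 4.84 to 5.03 in the double mutant arrays and 4.44 to 4.64 in the Pbrm1 mutant arrays. The genes of these lists were named after their values were seen.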
